A study of Homo sapiens with 8 samples.

Results

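Aldo-keto reductases were followed in HepG2, a human hepatocellular carcinoma cell line, across 8 Affymetrix expression arrays. Cells treated with 3 µM quercetin, a plant flavonol, were compared with control cells kept in serum-free medium without it, at 2, 4, 12 and 24 h. All cultures had been starved of serum beforehand, for 24 h or overnight depending on the label, so the controls carry the starvation too. Each treatment and time had 1 array, nothing in the labels describes replicate cultures, and a p-value over the 4 times measures the spread of the quercetin difference between times. The family was defined by 9 genes, AKR1B10, AKR1B1, AKR1C1, AKR1C2, AKR1C3, AKR1C4, AKR1D1, AKR1A1 and AKR7A2, and its members were the probe sets that the platform annotation pairs with them. That gave 15 of 54675 probe sets, for 7 of the 9 genes, among 21357 gene symbols on the array. AKR1B1 and AKR1A1 had no probe set under their names and were not analysed here.

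Most aldo-keto reductases are enzymes that use NADPH to reduce aldehydes and ketones to alcohols. In liver they clear reactive carbonyls, interconvert steroids and take part in bile acid synthesis, and several are established targets of NRF2, the transcription factor of the oxidant response. AKR1B10 reduces aldehydes and retinal and is often raised in hepatocellular carcinoma. AKR1C1 to AKR1C4 are hydroxysteroid dehydrogenases encoded side by side on chromosome 10, AKR1D1 is the 5-beta-reductase of bile acid and steroid synthesis, and AKR7A2 reduces aflatoxin dialdehyde and succinic semialdehyde.

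Of the 15 probe sets, 1 was for AKR1B10, 5 for AKR1C1, 3 for AKR1C2, 1 each for AKR1C3, AKR1C4 and AKR1D1, and 2 for AKR7A2, while 1 (1555854_at) was annotated to both AKR1C1 and AKR1C2. Names ending in _x_at mark probe sets that may cross-hybridise, and 4 such sets carried the AKR1C1 and AKR1C2 names. Names ending in _s_at mark sets that several transcripts share, as for AKR1B10 (206561_s_at). Values are log2 expression after RMA, the authors' array summary, and levels were compared only within a probe set. Testing was limited to probe sets with a mean above 7.43, the midpoint of all of them, which 12 of the 15 passed. The other 3, 1 each for AKR1C1, AKR1C2 and AKR1C4, were dimmer.

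The arrays had medians between 7.36 and 7.48, and their largest values lay between 15.12 and 15.31. The 18S rRNA signal of quercetin minus control arrays was 3.44, 0.10, -0.06 and -0.66 over the 4 times in order. The spike-in controls differed by 0.86 in the 2 h pair and by -0.05, 0.16 and -0.18 later. The 3′ minus 5′ signal of ACTB, a measure of RNA or labelling quality, differed most in the 12 h pair (0.88 in the quercetin array against 1.40 in the control array, a difference of -0.52), and by 0.24, 0.04 and 0.03 at the other times. All 12 hepatocyte markers with a probe set exceeded 7.43, as did 2 of 5 leukocyte, 2 of 6 fibroblast and 2 of 6 endothelial markers. The summed hepatocyte signal spanned 16.97 to 17.13 in quercetin arrays and 16.90 to 17.17 in control arrays on the log2 scale. Fewer cells and less RNA per cell cannot be told apart in these bulk samples.

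**Figure D1:**
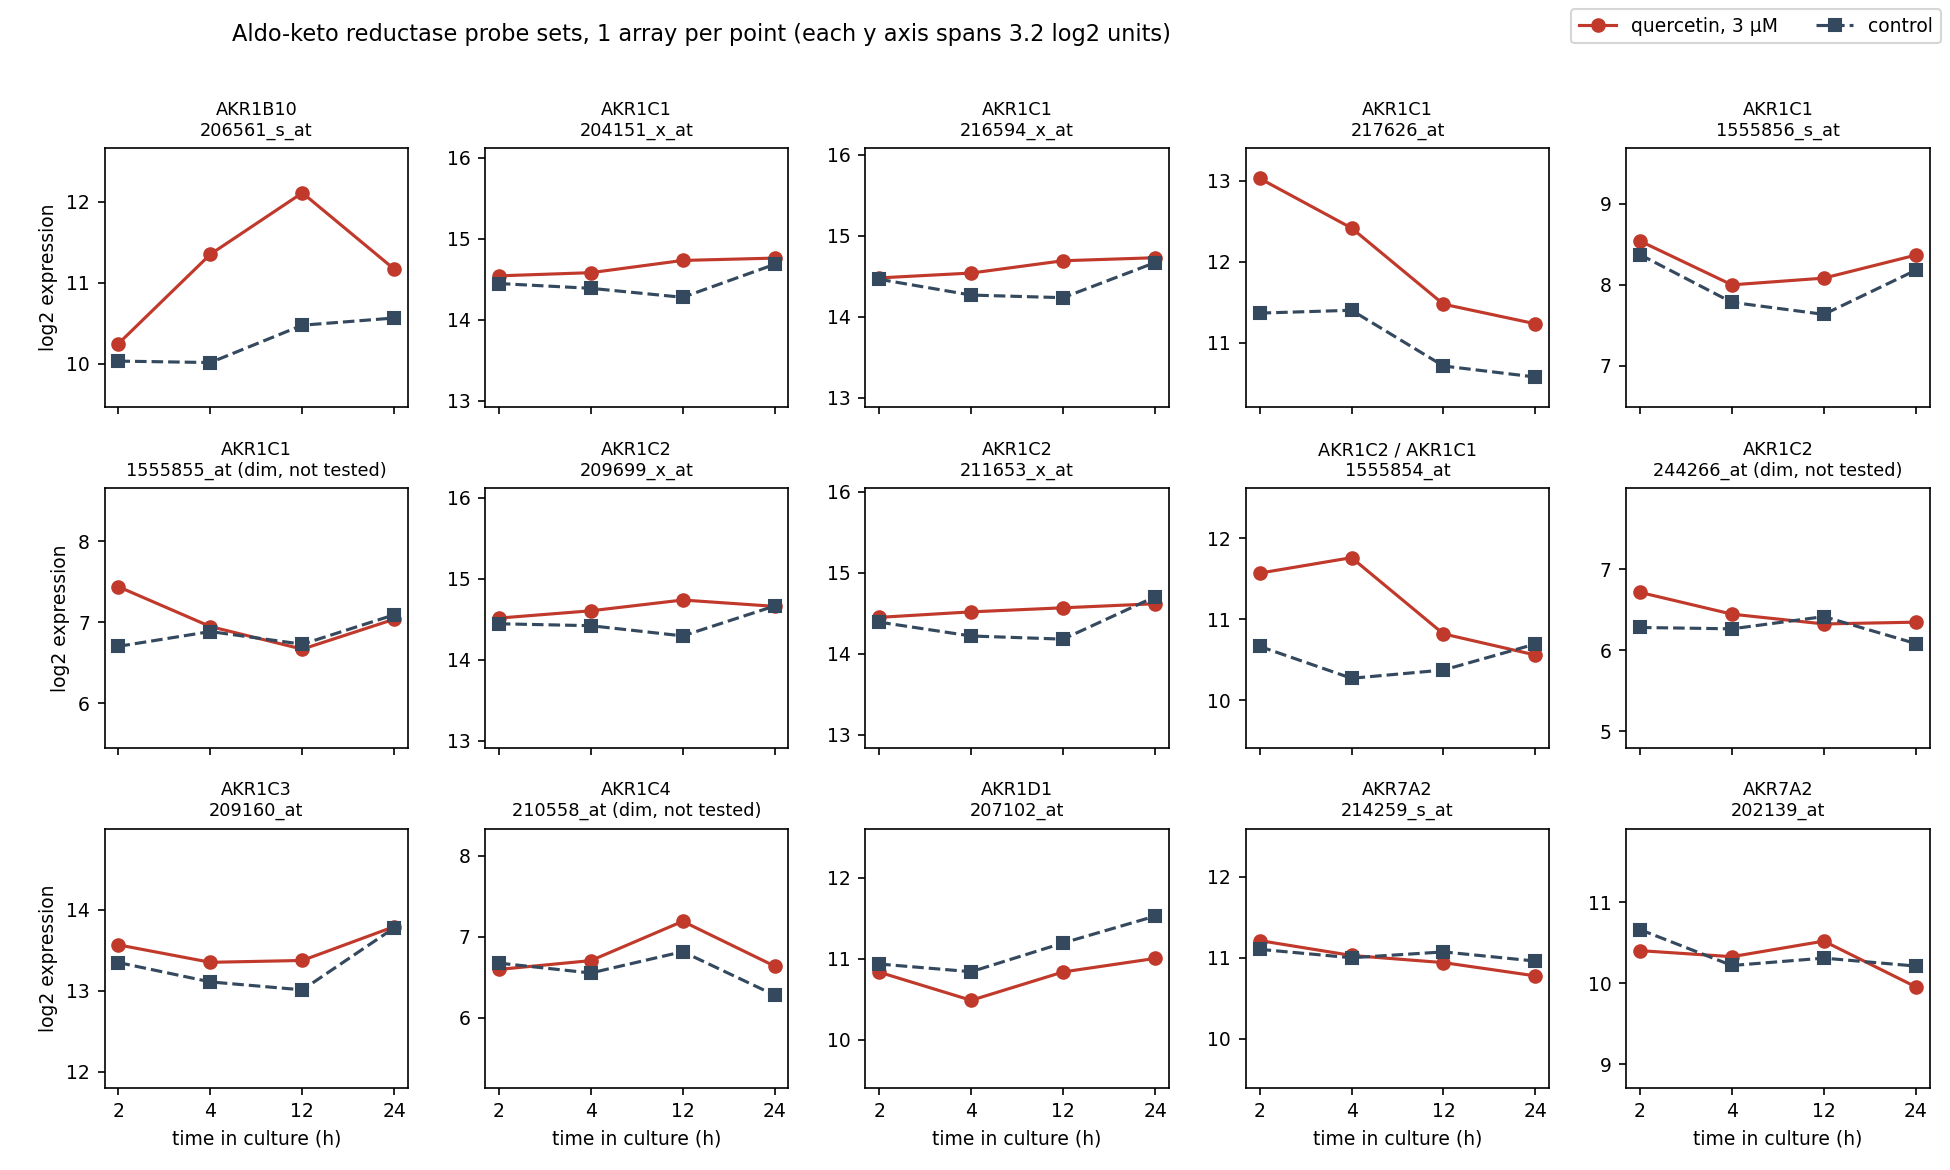
Log2 expression of the 15 aldo-keto reductase probe sets against time in culture (h, evenly spaced), with quercetin arrays as circles on a solid line and control arrays as squares on a dashed line, 1 array per point. AKR1B10 lay above control most at 4 and 12 h and by 0.60 at 24 h, AKR1C1 (217626_at) lay above control at every time, AKR1D1 lay lower with quercetin at every time, and AKR7A2 changed sides.

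AKR1B10 was higher with quercetin at each time, by little at 2 h and most at 12 h. Its probe set stood at 10.25, 11.35, 12.11 and 11.17 in quercetin arrays at 2, 4, 12 and 24 h, against 10.03, 10.01, 10.47 and 10.56 in control arrays. The 3 later quercetin arrays were above every control array, and the 2 h quercetin array lay among the controls. The differences were 0.22, 1.34, 1.63 and 0.60 on the log2 scale, or 1.16-fold, 2.53-fold, 3.11-fold and 1.52-fold. The mean difference was 0.95 ± 0.18 (SE, limma), the second largest of 27300 probe sets tested and the second smallest unadjusted p (0.000102). The adjusted p was 0.906, and it ranged from 0.0604 to 1 over 23 alternatives with means between 0.72 and 1.19, so AKR1B10 was not called. Without the 12 h pair, where the ACTB 3′ minus 5′ signal differed most, the mean was 0.72, and the part of that difference in the 12 h value was not tested. Over the 4 times the exact sign-flip test gave a two-sided p of 0.13, the smallest that 4 differences allow.

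AKR1C1, which inactivates progesterone, had the largest mean difference of all probe sets tested, at 217626_at, a set with a plain _at ending, here called gene-specific. Its level was 13.03, 12.41, 11.47 and 11.23 in quercetin arrays at 2, 4, 12 and 24 h, against 11.36, 11.40, 10.71 and 10.57 in control arrays. The quercetin array was above its control at each time, and both treatments were lower at 12 and 24 h than before, so the groups overlapped across times. The differences were 1.66, 1.01, 0.76 and 0.66, with the largest, 3.17-fold, at 2 h. The mean was 1.02 ± 0.14 (SE), the smallest p of all tested (2.28e-06), and the limma adjusted p of 0.0622 did not pass. It passed in 5 of 22 alternatives, over which it ranged from 0.0142 to 1. Among the 5 were array weights (0.0352), leaving out the 12 h pair (0.0189) and plain _at probe sets only (0.0142). The last setting still holds the shared 1555854_at. It did not pass after median centring (0.116), cyclic loess (0.44) or quantile normalization (0.192), or without the eBayes trend (0.890). Without the 2 h pair, where 18S differed most, the mean was 0.81 (adjusted p = 0.0803).

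In the 2 h pair 84 tested probe sets were more than 1 higher with quercetin, and at 24 h 5 of these were higher and 79 lower. Of the 194 more than 1 lower at 2 h, 75 were higher and 119 lower at 24 h, and over all 27300 36.5% were higher at 24 h. The gene-specific sets of APOA1, an apolipoprotein, and TXN, thioredoxin, were higher by 2.30 and 2.50 at 2 h and differed by -1.20 and -0.88 at 24 h. Each gene was read at its brightest set with a plain _at ending, with mean levels of 8.71 and 8.95. The values are those of these sets, and brighter sets with other endings were not compared. AKR1C1 (217626_at) was 1.66 higher at 2 h and 0.66 higher at 24 h, where 18S differed by 3.44 and -0.66. The part of the 18S differences in the AKR1C1 values at either time was not tested.

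The 4 _x_at probe sets of AKR1C1 and AKR1C2 had smaller differences. The 2 _x_at sets of AKR1C1 (204151_x_at and 216594_x_at) averaged 14.65 ± 0.11 and 14.61 ± 0.12 in quercetin arrays and 14.45 ± 0.17 and 14.41 ± 0.20 in control arrays (SD, n = 4 each, across times). Their mean differences were 0.20 ± 0.06 and 0.20 ± 0.07 (SE). Both were largest at 12 h, by 0.45 and 0.46, and small at 24 h, by 0.08 and 0.06. The 2 _x_at sets of AKR1C2 (209699_x_at and 211653_x_at), a dehydrogenase that inactivates dihydrotestosterone, had mean differences of 0.17 ± 0.07 and 0.16 ± 0.07. They were 0.44 and 0.39 higher at 12 h, and differed by -0.004 and -0.09 at 24 h. None passed the test (adjusted p = 0.906 for each). The ACTB 3′ minus 5′ difference was largest at 12 h too, and without that pair the means of the 4 sets were 0.08 to 0.12.

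These 4 bright probe sets traced nearly the same profile and cannot be assigned to AKR1C1 or AKR1C2 separately. After each was centred on its own mean, the root mean square difference between any pair of them over the 8 arrays was 0.04 to 0.07. Against AKR1C3 it was 0.13 to 0.19, and against AKR1C1 217626_at it was 0.77 to 0.79. They also lay within 0.48 to 1.07 of the largest value on the same array, where 217626_at lay 2.23 to 4.67 below it. How far a ceiling of the signal bears on the small differences was not tested.

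Transcript and probe sequences were not compared. The annotated promoters of both genes are alike, which does not show what the probe sets read. They are given 5′ to 3′ from RefSeq on GRCh38.p14, from 250 bases before to 50 bases after the start, AKR1C1 at chr10:4963165-4963464 on the plus strand and AKR1C2 at chr10:5003808-5004107 on the minus strand. Capitals mark the bases that differ or that occur in 1 of the 2 within the aligned stretch.
AKR1C1: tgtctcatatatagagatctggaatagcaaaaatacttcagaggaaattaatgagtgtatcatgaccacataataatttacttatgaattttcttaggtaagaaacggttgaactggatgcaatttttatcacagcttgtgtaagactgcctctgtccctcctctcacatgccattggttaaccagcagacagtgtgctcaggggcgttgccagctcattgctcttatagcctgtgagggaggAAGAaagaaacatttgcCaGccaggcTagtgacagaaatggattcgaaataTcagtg
AKR1C2: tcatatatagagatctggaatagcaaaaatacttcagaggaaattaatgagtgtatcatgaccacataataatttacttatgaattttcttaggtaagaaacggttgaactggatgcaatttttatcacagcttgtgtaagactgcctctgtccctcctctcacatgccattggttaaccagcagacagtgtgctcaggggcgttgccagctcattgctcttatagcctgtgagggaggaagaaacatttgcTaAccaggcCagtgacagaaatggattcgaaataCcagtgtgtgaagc
Over 292 aligned bases 288 were identical (98.6%), with 4 differing bases and 4 bases present only in AKR1C1. AKR1C3 has 2 annotated starts, whose promoters were 80.9% and 79.9% identical to that of AKR1C1, and the AKR1C4 promoter was 78.7% identical to it.

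The probe set annotated to both AKR1C1 and AKR1C2 (1555854_at) was higher with quercetin up to 12 h, and most at 4 h. Its level was 11.57, 11.76, 10.82 and 10.56 in quercetin arrays at 2, 4, 12 and 24 h, against 10.66, 10.27, 10.37 and 10.69 in control arrays. The 3 earlier quercetin arrays were above every control array, and that at 24 h was within the control range. The differences were 0.90, 1.49, 0.45 and -0.14, with a mean of 0.68 ± 0.19 (SE) and an adjusted p of 0.906. Here the test of late against early passed: the difference at 12 and 24 h was 1.04 ± 0.26 below that at 2 and 4 h (limma adjusted p = 0.0289). Over 22 alternatives that p spanned 0.00187 to 0.889, and 10 of them kept the call. Leaving out the 4 h pair ended it (-0.75, adjusted p = 0.499), as did leaving out the 24 h pair (-0.75, 0.253). Of the 12 probe sets tested 1 was called in that comparison, where 0.176% of all probe sets were called lower and 0.341% higher. For AKR1C1 217626_at the late against early value was -0.63 ± 0.23 (adjusted p = 0.399).

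AKR1C3, which makes testosterone from androstenedione and acts in prostaglandin synthesis, was slightly higher with quercetin up to 12 h. It stood at 13.56, 13.35, 13.37 and 13.79 in quercetin arrays at 2, 4, 12 and 24 h, against 13.35, 13.11, 13.01 and 13.77 in control arrays. Values of the groups overlapped, and both 24 h arrays were the highest of their treatment. The differences were 0.22, 0.24, 0.36 and 0.02, with a mean of 0.21 ± 0.07 (SE, adjusted p = 0.906), and the 24 h sign turned after median centring (-0.0012). Without the 12 h pair the mean was 0.16. A low-signal AKR1C1 set (1555856_s_at) differed by 0.17, 0.22, 0.45 and 0.19, with a mean of 0.25 ± 0.13 (adjusted p = 0.906).

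The 3 dim probe sets lay below 7.43 and were left out of the test. That of AKR1C4, the liver-specific dehydrogenase of bile acid synthesis (210558_at), was at 6.60, 6.71, 7.19 and 6.64 in quercetin arrays at 2, 4, 12 and 24 h, against 6.67, 6.55, 6.82 and 6.28 in control arrays. It differed by -0.08, 0.15, 0.37 and 0.36. The dim sets of AKR1C1 (1555855_at) and AKR1C2 (244266_at) were 0.74 and 0.43 higher at 2 h. At the later times their differences lay between -0.06 and 0.06 for AKR1C1 and between -0.09 and 0.26 for AKR1C2.

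AKR1D1 was lower with quercetin. It was at 10.83, 10.49, 10.84 and 11.00 in quercetin arrays at 2, 4, 12 and 24 h, against 10.93, 10.84, 11.19 and 11.52 in control arrays. Each quercetin array was below its own control, and the groups overlapped across times. The differences were -0.10, -0.35, -0.36 and -0.52, with a mean of -0.33 ± 0.11 (SE, adjusted p = 0.906, means from -0.41 to -0.27 over 24 alternatives). The 2 h sign turned after cyclic loess (0.07) and after quantile normalization (0.07). Of 12 hepatocyte markers 3 were also lower at all 4 times and 1 was higher, against 8.47% and 4.62% of all tested probe sets. The median difference over the list was -0.03. ALB (-0.41) and TF (-0.39) had unadjusted p-values of 0.00485 and 0.00905, and limma called 0 of the 12. Both were read at plain _at sets with mean levels of 11.27 and 10.08, and sets with other endings were not compared. The part of these markers in the AKR1D1 difference was not tested.

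AKR7A2 had no shared direction. The 214259_s_at set was at 11.21, 11.03, 10.94 and 10.77 in quercetin arrays at 2, 4, 12 and 24 h, against 11.10, 11.00, 11.07 and 10.96 in control arrays. The 202139_at set was at 10.41, 10.33, 10.52 and 9.96 in quercetin arrays, against 10.67, 10.22, 10.31 and 10.22 in control arrays. The groups overlapped at both sets. The sets averaged 10.99 ± 0.18 and 10.30 ± 0.24 in quercetin arrays and 11.03 ± 0.07 and 10.35 ± 0.21 in control arrays (SD, n = 4 each, for 214259_s_at and 202139_at). Their mean differences of -0.04 ± 0.11 and -0.05 ± 0.13 (SE) turned sign after cyclic loess and quantile normalization, and each was higher at 2 of 4 times. At 2 h the sets differed in sign (0.11 and -0.26), as they did at 12 h (-0.13 and 0.21).

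Promoters were searched for TGACNNNGC on both strands, from 250 bases before to 50 bases after the start. This is the core of the antioxidant response element, the site that NRF2 binds. Sites outside that window were not searched. Among the 8 genes with a promoter entry, AKR7A2 alone held the core within it. The promoter is shown for that reason, from chr1:19312097-19312396 on the minus strand (GRCh38.p14, RefSeq), with matches in capitals.
AKR7A2: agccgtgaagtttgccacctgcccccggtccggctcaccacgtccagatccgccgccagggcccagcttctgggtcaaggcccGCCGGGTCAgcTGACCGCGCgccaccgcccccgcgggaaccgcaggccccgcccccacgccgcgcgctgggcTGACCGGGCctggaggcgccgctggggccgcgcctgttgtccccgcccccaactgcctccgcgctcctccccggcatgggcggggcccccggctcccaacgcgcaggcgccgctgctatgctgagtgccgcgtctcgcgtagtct
There were 3 matches, at -167, -156 and -95 from the start, the first on the opposite strand. The core occurs in 13.3% of 35116 promoters of this length, and no match was found within this window for AKR1B1, AKR1C1, AKR1C2, AKR1C3, AKR1C4, AKR1D1 or AKR1A1. AKR1B10 had no entry.

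**Figure D2:**
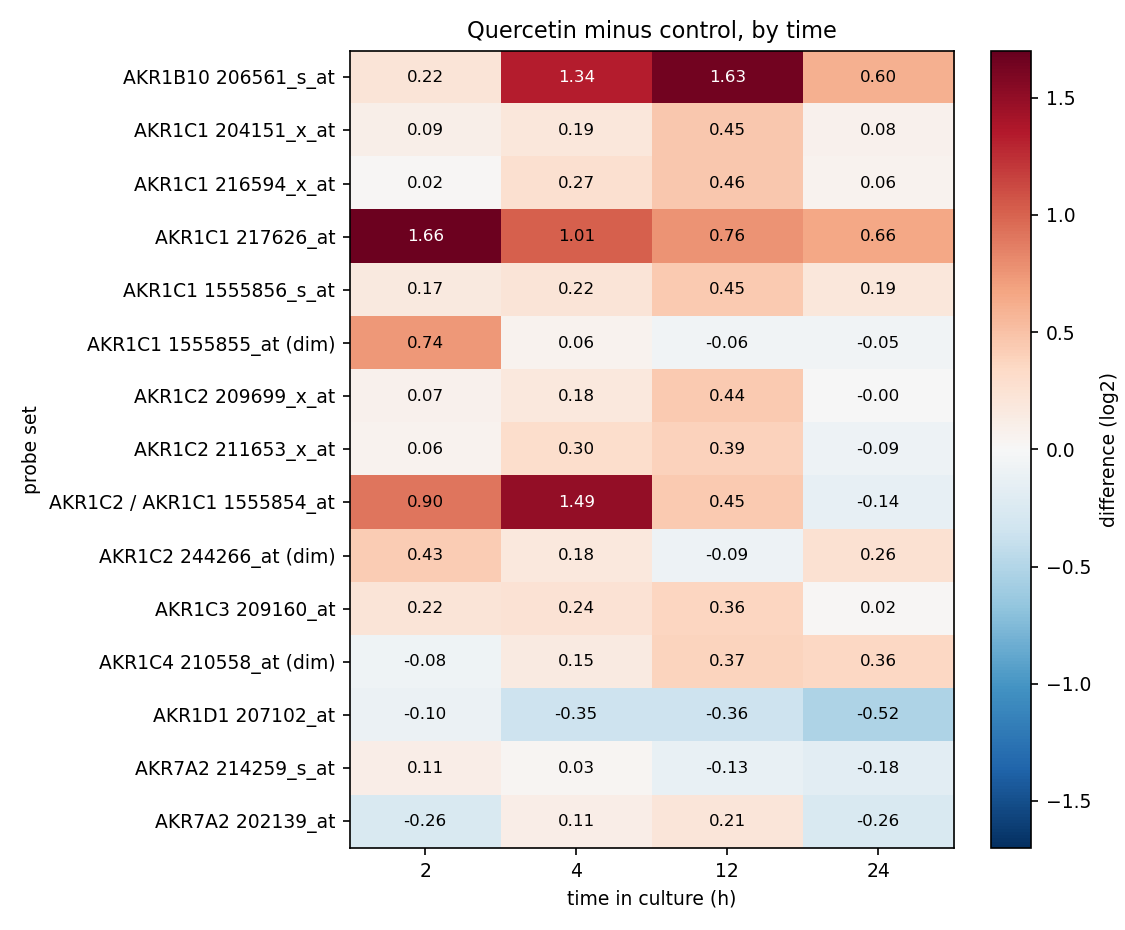
Quercetin minus control (log2) for each of the 15 probe sets (rows) at 2, 4, 12 and 24 h (columns), 1 array against 1 array, with red for higher and blue for lower with quercetin. The largest values are those of AKR1C1 217626_at at 2 h (1.66), AKR1B10 at 12 h (1.63) and the AKR1C1 and AKR1C2 set at 4 h (1.49).

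Single times compare 1 array with 1 array and have no test. More than 0.5 higher with quercetin were 2, 3, 2 and 2 of the 12 probe sets at 2, 4, 12 and 24 h, where 5.04%, 1.75%, 5.68% and 3.71% of all tested probe sets were. At 4 h these were AKR1B10, AKR1C1 217626_at and 1555854_at. More than 0.5 lower were 0, 0, 0 and 1 of 12, where 10.5%, 1.93%, 1.92% and 6.28% of all were, and the 1 was AKR1D1. More than 1 higher were 1, 3, 1 and 0 of 12, against 0.308%, 0.0623%, 0.689% and 0.242% of all. More than 1 lower were 0 of 12 at each time, against 0.711%, 0.033%, 0.0476% and 0.253% of all. The median of the 12 was 0.10, 0.23, 0.44 and 0.01 at the 4 times, against -0.06, -0.02, 0.05 and -0.09 over all probe sets.

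Over the times, 9 of the 12 means were positive, with a median of 0.20, against 43.8% positive and a median of -0.02 among all 27300. Limma called 0 of 12 and 0% of all probe sets in either direction. Unadjusted p-values under 0.05 were found for 8 of 12 higher and 1 of 12 lower, against 1.47% and 3.61% of all (1388 probe sets). That count depended on the model. In either direction it was 4 of 12 without the eBayes trend (1419 of all probe sets). With time left out of the model it was 3 of 12 (174 of all). The 12 sets are not independent, since the 4 _x_at sets traced nearly the same profile. Higher at all 4 times were 6 of 12 (4.62% of all). The number was 4 with median-centred arrays and 7 after cyclic loess or quantile normalization. Lower at all 4 times was 1, AKR1D1 (8.47% of all), and 0 after cyclic loess or quantile normalization. All 4 quercetin arrays above all 4 control arrays was true of 0 of 12 and of 0.381% of all, and all 4 below of 0 of 12 and of 0.326% of all.

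**Figure D3:**
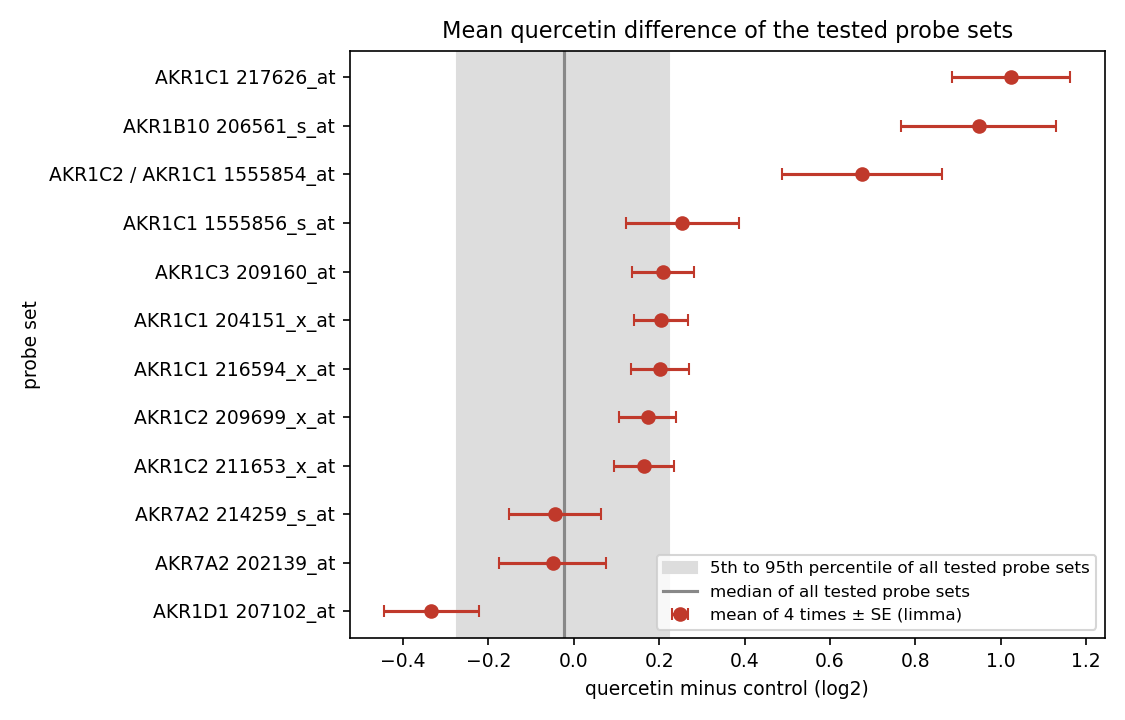
Mean quercetin minus control difference over the 4 times (log2, points) with its SE (bars, limma) for the 12 tested probe sets, with the 5th to 95th percentile of all 27300 tested probe sets (-0.27 to 0.22) shaded and their median as a line. AKR1C1 217626_at, AKR1B10 and the shared AKR1C1 and AKR1C2 set lie well to the right of the band, and AKR1D1 to its left.

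Time in culture was tested in a model that holds both treatments, so each value averages the quercetin and control courses. The F-test over the 4 times called 5 of 12 probe sets, where 29.3% of all were called, and this count is not read as a trait of the family. The 5 were AKR1B10, AKR1C3, AKR1D1 and AKR1C1 at 217626_at and 1555856_s_at. At 24 h against 2 h, 1 of 12 was called higher and 1 lower, against 12.7% and 4.15% of all. AKR1C1 217626_at fell by 1.29 ± 0.20 (SE) at 24 h relative to 2 h (limma adjusted p = 0.000758), with 4.15% of all called lower. From 2 to 24 h it went from 13.03 to 11.23 in quercetin arrays and from 11.36 to 10.57 in control arrays. Its fall passed in 19 of 20 alternatives and was missed without the treatment term (0.0513). The other tested AKR1C1 sets differed by 0.23 (204151_x_at), 0.23 (216594_x_at) and -0.18 (1555856_s_at) at 24 h against 2 h. The shared 1555854_at differed by -0.49, and none of these sets was called, so the fall is that of 217626_at. AKR1C3 rose by 0.33 ± 0.10 (adjusted p = 0.0404), with 12.7% of all called higher. That call held in 8 of 22 alternatives and was lost, among others, after cyclic loess (0.13, adjusted p = 0.317) and without the control array at 24 h (0.20, 0.466).

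Among the others called by the F-test, AKR1B10 spanned 1.15 between its lowest and highest time (adjusted p = 0.0194) and was 0.73 ± 0.26 higher at 24 h than at 2 h (0.0651). Its control arrays lay between 10.01 and 10.56 and its quercetin arrays between 10.25 and 12.11, so the control course alone was flatter. Its F-test call was lost without the 2 h pair (0.0604), the quercetin array at 2 h (0.0843) or the 24 h pair (0.0699). AKR1D1 spanned 0.60 (adjusted p = 0.0438), and 0.19 after cyclic loess (0.591). That call was lost without either array at 4 h or at 24 h (0.105 to 0.305). The AKR1C3 F-test call (adjusted p = 0.00207) was lost without the 24 h pair (0.285) or its control array (0.0853), and its span of 0.59 was 0.24 after cyclic loess (0.177) and 0.27 after quantile normalization (0.0932). AKR1C1 1555856_s_at spanned 0.60 (adjusted p = 0.0489) and was called in 3 of 20 alternatives. Without the 24 h pair 1 of 12 was called over time and without the 12 h pair 8 were. The count over all probe sets also varied with the pair or array left out, so these counts are not read as a trait of the family. The 3′ minus 5′ signal of ACTB was 1.39 and 1.36 at 24 h in quercetin and control arrays, against 1.11 and 0.88 at 2 h, and its part in these changes was not tested.

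Genes with the closest profiles were sought among single-symbol probe sets by the root mean square difference of centred values over 8 arrays. For AKR1B10, whose own spread was 0.69, these were GSTA1 (0.37), a glutathione transferase, PTGR1 (0.39), a reductase of prostaglandins and alkenals, ARSK (0.42), DDX21 (0.44) and CBL (0.45). GSTA1 differed between quercetin and control by 0.36, 0.68, 0.42 and 0.37 at the 4 times, and PTGR1 by -0.05, 1.22, 1.21 and 0.19. For AKR1C1 217626_at, with a spread of 0.77, they were SRXN1 (0.37), which restores oxidised peroxiredoxins, ELMOD2 (0.41), SOS1 (0.43), REXO6P (0.43) and ABCC3 (0.44), an efflux transporter.

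Of 26 tested genes among other NRF2 antioxidant targets, limma called 0 for quercetin in either direction, and 12 were higher and 0 lower at an unadjusted p under 0.05, as were 1.47% and 3.61% of all probe sets. Their means were positive for 24 of 26, against 43.8% of all, with a median of 0.23 against -0.02 over all probe sets. They were higher for 18, 24, 24 and 16 genes at 2, 4, 12 and 24 h, with medians of 0.10, 0.34, 0.35 and 0.06. TXN (0.72), SRXN1 (0.66), TXNRD1 (0.56), thioredoxin reductase, and GCLM (0.49), a subunit of the first enzyme of glutathione synthesis, had the largest means. The TXN value is that of its brightest gene-specific set, with a mean level of 8.95. It rested on the 2 h pair (2.50, 0.89, 0.36 and -0.88 over the times). Without that pair the TXN mean was 0.13, against 0.69 for SRXN1, 0.57 for TXNRD1 and 0.58 for GCLM. From 2 to 24 h 0 rose and 3 fell, where 12.7% of all rose and 4.15% fell: SRXN1 (-0.76), MGST1 (-0.95) and ABCC3 (-1.06, at a different probe set than the 1 named above). MGST1 and ABCC3 were read at plain _at sets with mean levels of 8.75 and 9.24, and sets with other endings were not compared. SLC7A11, the cystine transporter, differed by 0.62 (adjusted p = 0.147).

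The 4 remaining enzyme lists had median differences between -0.04 and 0.11. Other aldo-keto reductase genes had 4 tested members, with KCNAB1, a potassium channel subunit, at a mean of 0.51 and AKR7A3, a paralog of AKR7A2, at 0.15, KCNAB2 at 0.07 and AKR1E2 at 0.06. Without the 2 h pair the KCNAB1 mean was 0.35. Among 20 other carbonyl, aldehyde and polyol enzymes the median mean was -0.04, with ALDH9A1 (-0.21), ALDH1L1 (0.19), ALDH1A2 (0.18) and ADH5 (-0.13) the largest in size. Bile acid synthesis genes other than AKR1D1 and AKR1C4 had a median of -0.01 over 9 genes, led by ACOX2 (-0.16), CYP8B1 (-0.16), AMACR (0.16) and SLC27A5 (-0.08). Steroid hormone metabolism genes had a median of -0.03 over 10, led by SRD5A2 (0.19, and 0.07 without the 2 h pair), HSD17B2 (-0.17), STS (0.16) and SULT2A1 (-0.09). In these 4 lists limma called 0 genes for quercetin, and 1, KCNAB1, had an unadjusted p under 0.05. Between 2 and 24 h ALDH1A1 (0.60) and ALDH2 (0.47), which oxidise retinal and acetaldehyde, and HSD17B4 (0.47), of peroxisomal beta-oxidation, rose, and ALDH3B1 (-0.73) fell.

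**Figure D4:**
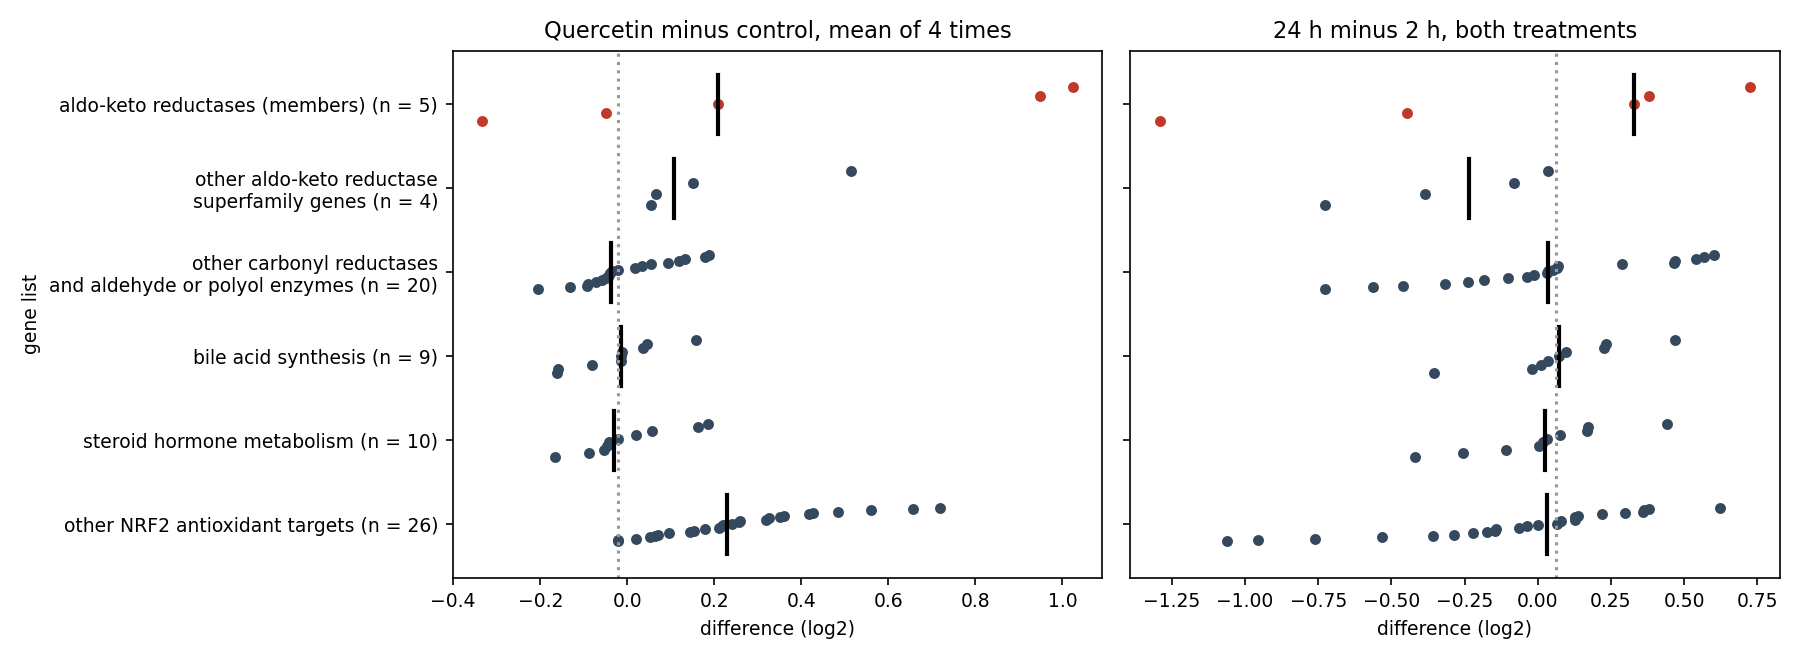
Mean quercetin minus control difference over 4 times (left) and 24 h minus 2 h difference (right), both log2, with 1 point per gene at its brightest gene-specific probe set, or its brightest where it has none. Rows are gene lists with the number of genes tested, black bars are list medians and dotted lines the median of all probe sets, and the aldo-keto reductases hold the 2 largest points on the left.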

How the data were processed

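RNA of 8 HepG2 samples was measured on Affymetrix arrays. The authors deposited log2 values in 1 table. RMA is named in the submitters' processing notes. Its settings and version were not given in the sources used here. Of 54675 probe sets 62 are controls, 41091 had 1 gene symbol, 1801 several and 11721 were not listed. Symbols were updated through Entrez identifiers.

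Non-control probe sets with a mean above 7.43 (27300) were fitted with limma 3.58.1 in R 4.3.3 (lmFit, eBayes with trend, Benjamini-Hochberg adjustment over all of them, threshold 0.05). The model held time and treatment as added terms, with 3 residual degrees of freedom. Time pairs the arrays, since the labels give each treatment the same times. A second model added treatment at 12 and 24 h, with 2. Probe sets were fitted separately because paralogs share them. All members were named, with genes from the 4 largest means and 24 h differences in other lists and the 5 closest profiles. Where the rule's 24 h genes did not pass the test, most are left unnamed. ALDH2 was named because it passed. Every list was represented by each gene's brightest gene-specific probe set (a plain _at ending), or its brightest where it had none. Members, lists and tests were chosen with earlier results of these data known. The number of arrays limits the precision. The fitting code was also run on data simulated from the fitted model with independent noise. That run cannot speak to array-wide differences such as those of the 2 h and 12 h pairs. Alternatives changed the filter, probe-set choice, scaling, variance model and model terms, and left out each pair or array.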

Additional observations from a re-analysis of the deposited data

Results flagged for a closer look

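The probe set annotated to both AKR1C1 and AKR1C2 (1555854_at) had a quercetin difference that was not the same at all times. The mean difference at 12 and 24 h minus that at 2 and 4 h was -1.04 on the log2 scale, and limma's test of this difference passed (adjusted p = 0.0289). The call held in 10 of 22 alternatives, with adjusted p up to 0.889, and was lost with no filter (0.183), when the 4 h pair (0.499) or the 24 h pair (0.253) was left out. Its part in AKR1C1 and in AKR1C2 cannot be told apart.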

How the results depend on the processing

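For quercetin against control limma called 0 probe sets, and 1, AKR1C1 217626_at, with gene-specific probe sets (plain _at endings, which include the shared 1555854_at) or array weights, and 0 to 1 when 1 pair or array was left out. That 1 was the only aldo-keto reductase called. With no replicate block, time left out of the model, the count was 0. AKR7A2 turned sign: 202139_at was 0.016 after cyclic loess, 0.020 after quantile normalization and -0.14 to 0.021 with a pair or array left out, and 214259_s_at was 0.014, 0.013 and -0.10 to 0.0015. Over time the count of 7988 was 5064 with the brightest probe set per gene, 2874 with the mean of probe sets and 4799 with gene-specific sets, and 443 to 9871 with a pair or array left out. The 5 aldo-keto reductases called were 3 with no filter, the brightest set, the mean of sets or gene-specific sets, 8 after median centring, 2 without trend, 1 without the treatment term, and 1 to 8 with a pair or array left out. For 24 h against 2 h, 4597 became 2831, 1525 and 2887 with the brightest, mean and gene-specific sets, and 1064 to 5229 with a pair or array left out. The 2 aldo-keto reductases called became 1 with no filter, no trend or array weights, 0 with the mean of sets or no treatment term, and 1 to 7 with a pair or array left out, where 7 was without the 12 h pair or either of its arrays. For late against early, 141 became 36 with no filter, 49, 1 and 73 with the brightest, mean and gene-specific sets, 0 after cyclic loess or without trend, 1 after quantile normalization, 17 for 2 h against later times, and 45 to 443 with a pair or array left out. The 1 aldo-keto reductase called became 0 in these settings other than gene-specific sets, 0 after median centring, and 0 to 3 with a pair or array left out. At a threshold of 1 the counts higher at 2, 12 and 24 h were 1, 1 and 0. In all, 532 of the values for single probe sets kept direction and side of the threshold, 67 lost a call, 31 gained one and 13 turned. The planned contrasts of 4 h and 12 h against 2 h were not reported. Arrays give no depth, and probe sets near the largest array value or below the filter limit what can be seen.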
